A study of Callithrix jacchus with 4 samples.

Results

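Molecular chaperones are proteins that help other proteins fold, keep partly folded chains soluble and pass damaged ones on for degradation. HSP70 proteins bind exposed stretches of a client and release it in a cycle driven by ATP, in which J-domain proteins (DNAJ) deliver the client and HSP110 proteins exchange the nucleotide. HSP90 with its cochaperones matures kinases and steroid receptors, the TRiC ring folds actin and tubulin, and small heat shock proteins hold unfolded clients without ATP. When unfolded protein accumulates, heat shock factor 1 (HSF1) induces a subset of these genes, which is the heat shock response. In brain tissue chaperones are studied for their handling of tau, α-synuclein and amyloid-β.

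The genes described here are the rows of the count table whose symbols belong to the HSP70, HSP110, HSP90, small heat shock, DNAJ and TRiC families, together with HSPD1, BAG3, STIP1, FKBP4 and CHORDC1. HSPA5, DNAJB9 and DNAJC3, which serve the endoplasmic reticulum, were left out by the rule. The rule went by symbol and used no measured value, but it was set with earlier results of these data known. It gave 81 genes of 35108, of which 73 passed the filter on low counts and were tested among 16385 genes. The label of cytosolic and mitochondrial chaperones holds for most of them. The rule also takes in proteins of the endoplasmic reticulum, among them HSPA13, DNAJB11, DNAJB12, DNAJB14, DNAJC1 and DNAJC10. CCT8L2, a gene that resembles CCT8, is a match by name only and is not a TRiC subunit. HSPE1 and HSPA1A matched no row by symbol and were not analysed here.

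RNA was sequenced from frontal cortex of adult common marmosets (Callithrix jacchus), with 2 libraries from animals carrying a mutant APP transgene and 2 from wild-type animals. The transgene is driven by the human EF1α promoter, which is active in most cell types. The labels give the transgenic animals as female and no sex for the wild type, and they do not say whether the libraries of a genotype came from separate animals, so p-values measure the spread between these libraries, part of which may be technical. The comparison asks how chaperone transcripts in transgenic cortex differed from those in wild type.

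Total counts were 13462167 and 18932180 in transgenic libraries 1 and 2 and 12657323 and 13569838 in wild-type libraries 1 and 2. A count of 3, the least told apart from 0 by counting error, corresponds to 0.166 to 0.232 CPM (each count as a share of its TMM-scaled library, in the usual CPM unit). The 81 genes took 1.31% and 1.29% of the counts in transgenic libraries 1 and 2, and 1.26% and 1.33% in wild-type libraries 1 and 2. Transgenic library 2 stood apart in its glial markers. The 8 astrocyte markers summed to 9552 and 3210 CPM in transgenic libraries 1 and 2 and to 10766 and 9082 CPM in wild-type libraries 1 and 2, and the 8 oligodendrocyte markers to 3147 and 1156 CPM against 3234 and 2530 CPM. The 6 excitatory neuron markers summed to 5491 and 5907 CPM in the transgenic libraries and to 5251 and 6314 CPM in the wild-type libraries, and the 6 inhibitory neuron markers to 739 and 808 CPM against 627 and 646 CPM. The 8 microglial markers summed to 123 and 78.6 CPM in the transgenic and to 172 and 223 CPM in the wild-type libraries. In bulk tissue, fewer cells of a type and less RNA per cell cannot be told apart.

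No chaperone gene passed an adjusted p of 0.05 between transgenic and wild-type cortex in the quasi-likelihood test of edgeR, and neither did any of the other genes tested (percent called 0). DESeq2 called 48 genes (0.293%) and none of the 73 chaperone genes. At an unadjusted p under 0.05, edgeR counted 3 chaperone genes as higher (4.11%, against 3.23% of all genes) and 2 as lower (2.74%, against 2.39%). Of the 73 genes, 40 were higher in sign, as were 49.6% of all genes, and 33 lower, as were 50.4% of all genes. Their median log2 fold change was 0.02, against 0.00 over all genes. The transgenic pair lay wholly above the wild-type pair for 16 genes (21.9%, against 19.5% of all genes), and wholly below it for 12 (16.4%, against 19.4%). These shares were near those of all genes.

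**Figure D1:**
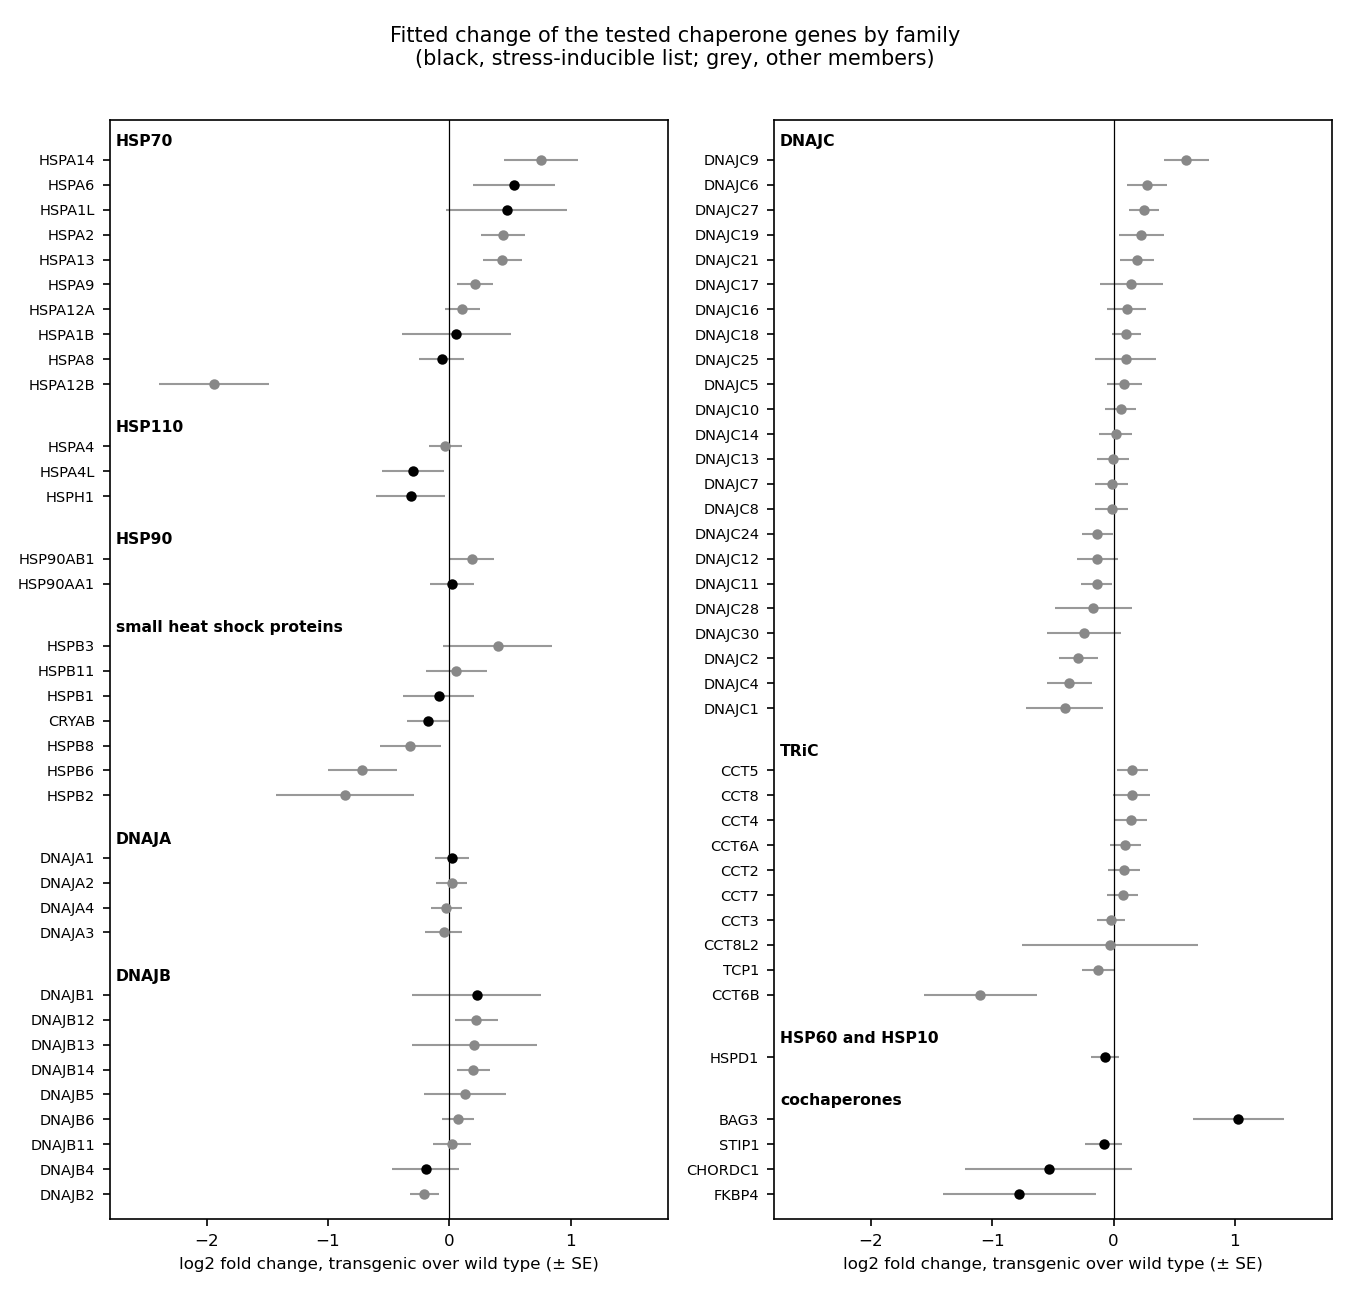
Fitted log2 fold change (transgenic over wild type, x axis) of the 73 tested chaperone genes by family, with bars of 1 SE (2 libraries per genotype). Most points lie within 0.5 of 0; HSPA12B at -1.94, CCT6B at -1.10 and BAG3 at 1.03 lie farthest out, and none passed the adjusted threshold.

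Transgenic library 2 set against the wild-type pair, without transgenic library 1, gave 8 calls among 74 chaperone genes (10.8%), where 9.92% of all genes were called, 4.52% as higher and 5.4% as lower. A single transgenic library was then assumed to vary like the wild-type pair. BAG3 (log2 fold change 1.40), HSPA14 (1.07) and HSPA13 (0.60) were higher there, and HSPA12B (-2.63), FKBP4 (-1.97), CHORDC1 (-1.90), DNAJC1 (-0.87) and HSPA4L (-0.69) were lower, with adjusted p between 0.0043 and 0.049 in edgeR's test. The summed astrocyte and oligodendrocyte markers were also lowest in that library, and their part in these calls was not tested. Without transgenic library 2 there was no call among the chaperone genes.

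The HSP90 proteins are abundant cytosolic chaperones. HSP90AA1, the form that heat stress induces, was at 2916 and 3147 CPM in transgenic libraries 1 and 2 and at 2925 and 3045 CPM in wild-type libraries 1 and 2. The genotypes overlapped, and the log2 fold change was 0.02 ± 0.18 (SE, n = 2 per genotype; adjusted p = 0.98 in edgeR), with a sign that turned with library totals without scaling (-0.025). HSP90AB1, the constitutive form, was at 2005 and 2358 CPM in transgenic and at 1871 and 1954 CPM in wild-type cortex. Both transgenic libraries lay above the wild-type pair, by less than the spread between the transgenic libraries (log2 fold change 0.19 ± 0.18 SE, n = 2 per genotype; adjusted p = 0.82 in edgeR).

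Of the 10 HSP70 genes tested, 8 had a positive sign, against 49.6% of all genes, and the median log2 fold change was 0.32. For 6 of them (60%, against 19.5% of all genes) the transgenic pair lay wholly above the wild-type pair, and for 1 (10%, against 19.4%) wholly below it. Leaving out 1 library moved the median between 0.16 and 0.41, with the lowest value without wild-type library 1. With a minimum mean count of 50, which removed HSPA1L from the set, the median was 0.20. HSPA8, the constitutive HSP70 that also uncoats clathrin vesicles at synapses, was at 1354 and 1113 CPM in transgenic libraries 1 and 2 and at 1182 and 1397 CPM in wild-type libraries 1 and 2. The genotypes overlapped (log2 fold change -0.06 ± 0.19 SE, n = 2 per genotype; adjusted p = 0.94 in edgeR). HSPA9, the HSP70 that pulls proteins into the mitochondrial matrix, was at 270.2 and 328 CPM in transgenic and at 266 and 252 CPM in wild-type cortex, so the transgenic libraries were higher by a narrow margin.

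Several HSP70 genes with fewer counts separated by genotype. HSPA13, which resides in microsomes, was at 110.4 and 142 CPM in transgenic and at 91.6 and 95.4 CPM in wild-type cortex (log2 fold change 0.43 ± 0.16 SE, n = 2 per genotype; adjusted p = 0.79 in edgeR). HSPA14, the HSP70 of the ribosome-associated complex, was at 12.6 and 20.9 CPM in transgenic and at 10.6 and 9.29 CPM in wild-type cortex. Transgenic library 2 was the high sample for both genes, and transgenic library 1 lay nearer the wild-type pair. With transgenic library 2 left out, the log2 values were 0.24 for HSPA13 and 0.34 for HSPA14; with transgenic library 1 left out they were 0.60 and 1.07. HSPA2, known for its role in spermatogenesis, was at 27.9 and 33.6 CPM in transgenic and at 24.1 and 21.2 CPM in wild-type cortex. The partner of HSPA14 in the ribosome-associated complex, DNAJC2, lay on the other side, at 32.0 and 27.9 CPM in transgenic and at 38.5 and 34.8 CPM in wild-type cortex. None of these passed the test (adjusted p = 0.79 for each in edgeR).

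HSPA12B, an atypical HSP70 known from endothelial cells, had the smallest p of all chaperone genes. It had 41 and 24 counts in transgenic libraries 1 and 2 and 114 and 105 in wild-type libraries 1 and 2, or 3.01 and 1.33 CPM against 8.82 and 7.68 CPM. Both transgenic libraries were far below the wild-type pair (log2 fold change -1.94 ± 0.45 SE, n = 2 per genotype; adjusted p = 0.79 in edgeR and 0.15 by DESeq2). The unadjusted p in edgeR was 0.0068. Among the fits that left out 1 library the value ran between -2.63 and -1.45. The summed level of endothelial markers was lower in the same libraries: the 7 genes summed to 169 and 139 CPM in the transgenic libraries and to 281 and 203 CPM in the wild-type libraries. Of the 7, 6 were lower in sign, against 50.4% of all genes, and for 4 (57.1%, against 19.4% of all genes) the transgenic pair lay wholly below the wild-type pair. None of the 7 was at 0. From transgenic library 1 to 2, where HSPA12B fell, FLT1, VWF and ESAM also fell. CLDN5, PECAM1, CDH5 and TIE1 rose between the same libraries. The part of endothelial cells in the HSPA12B difference was not tested. Its paralog HSPA12A, known from neurons, was at 304 and 366 CPM in transgenic and at 318 and 305 CPM in wild-type cortex, where the genotypes overlapped.

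**Figure D2:**
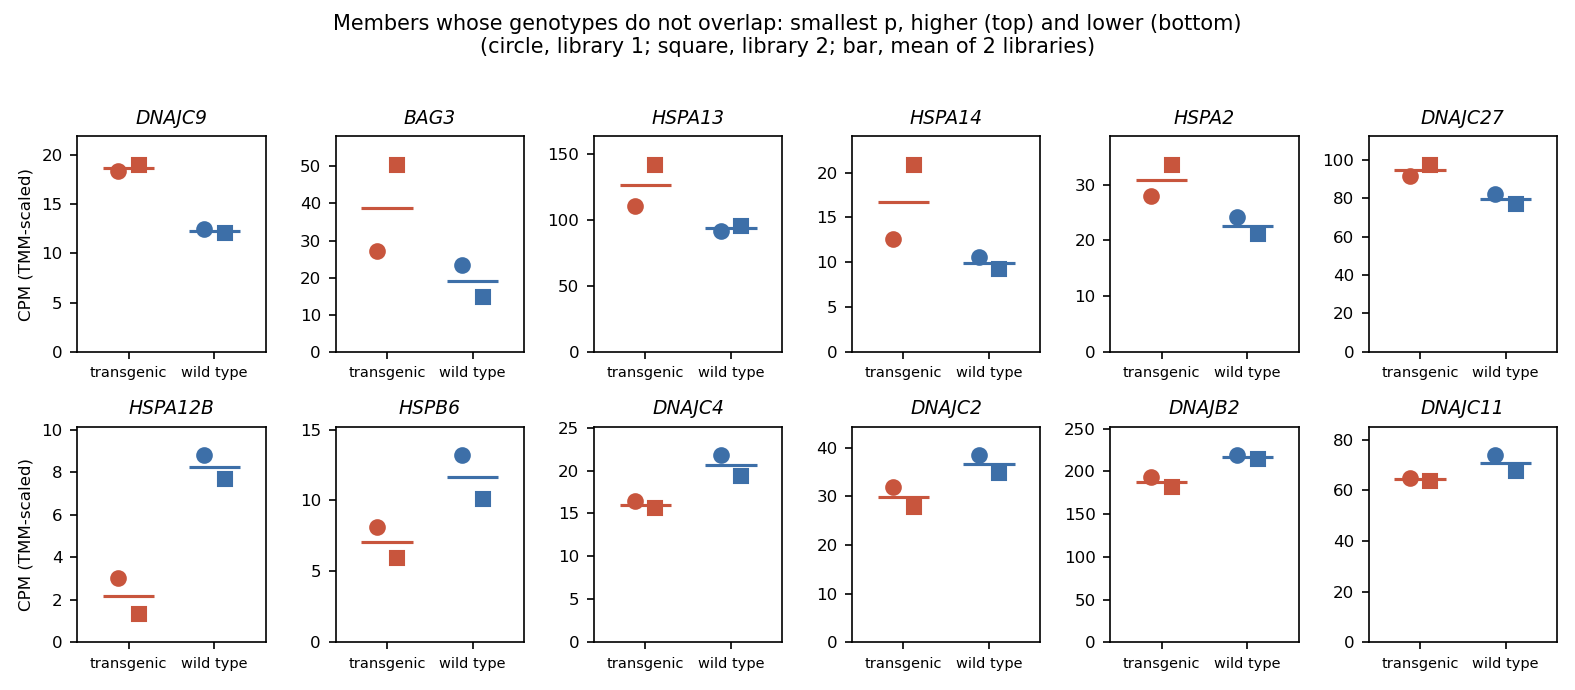
TMM-scaled CPM (y axis) per library for the 6 chaperone genes per direction with the smallest p among those with no overlap between genotypes and a mean count of at least 20. HSPA12B shows the widest gap for its level, at 3.01 and 1.33 CPM in transgenic against 8.82 and 7.68 CPM in wild-type libraries; for BAG3, HSPA13 and HSPA14 transgenic library 2 (square) is the high point.

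The small heat shock proteins hold unfolded clients, and several are best known from muscle and glia. The set was taken by symbol alone (HSPB names and CRYAB), not by function. Of the 7 tested, 5 were lower in sign, against 50.4% of all genes, and the median log2 fold change was -0.18. For 2 of them (28.6%, against 19.4% of all genes) the transgenic pair lay wholly below the wild-type pair, and for none wholly above it (0%, against 19.5%). HSPB6 was at 8.16 and 5.98 CPM in transgenic and at 13.2 and 10.1 CPM in wild-type cortex (log2 fold change -0.72 ± 0.28 SE, n = 2 per genotype; adjusted p = 0.79 in edgeR). HSPB2, a muscle form named here after its values were seen, had 12 and 7 counts in transgenic and 16 and 14 in wild-type libraries. Both genes also had a lower CPM in transgenic library 2 than in library 1.

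HSPB1 and CRYAB, the members of the family on the stress-inducible list described below, did not separate by genotype. HSPB1 was at 31.2 and 31.6 CPM in transgenic libraries 1 and 2 and at 24.0 and 42.8 CPM in wild-type libraries 1 and 2. The transgenic values lay between those of the wild type. CRYAB, abundant in oligodendrocytes and astrocytes, was at 49.8 and 52.3 CPM in transgenic and at 65.1 and 50.5 CPM in wild-type cortex. Its level in transgenic library 2 was close to that in library 1 (ratio 1.05). HSPB8, which works with BAG3 to route clients to autophagy, was at 29.9 and 19.2 CPM in transgenic and at 28.9 and 32.4 CPM in wild-type cortex, and the low sample was transgenic library 2.

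Among the 4 cochaperones the transgenic pair lay wholly above the wild-type pair for 1 (25%, against 19.5% of all genes). It lay wholly below for none (0%, against 19.4%). The 1 gene was BAG3, which hands HSP70 clients to autophagy. It was at 27.3 and 50.5 CPM in transgenic libraries 1 and 2 and at 23.4 and 14.8 CPM in wild-type libraries 1 and 2. Transgenic library 2 was well above the other samples, and transgenic library 1 lay just above wild-type library 1. The fitted fold was 2.04 (log2 1.03 ± 0.37 SE, n = 2 per genotype; adjusted p = 0.79 in edgeR and 0.59 in DESeq2). Leaving out a library moved the log2 fold change between 0.51 and 1.40, with the lowest value without transgenic library 2.

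Genes known to be induced by heat or proteotoxic stress, with close relatives such as HSPA8 and HSPA1L, formed a list of 19, of which 17 were tested. Of these 7 were higher and 10 lower in sign, against 49.6% and 50.4% of all genes, and the median log2 fold change was -0.07. The transgenic pair lay wholly above the wild-type pair for 3 (17.6%, against 19.5% of all genes) and wholly below it for 1 (5.88%, against 19.4%). The larger differences lay between libraries of the same genotype. FKBP4, an HSP90 cochaperone of steroid receptors, was at 30.1 and 8.36 CPM in transgenic libraries 1 and 2 and at 22.8 and 42.6 CPM in wild-type libraries 1 and 2. CHORDC1, another HSP90 partner, was at 51.6 and 12.4 CPM in transgenic libraries 1 and 2 and at 31.4 and 60.9 CPM in wild-type libraries 1 and 2. For both genes transgenic library 2 was the lowest sample and wild-type library 2 the highest.

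DNAJB1, the J-domain protein that partners the inducible HSP70, was at 155 and 53.0 CPM in transgenic libraries 1 and 2 and at 66.7 and 111 CPM in wild-type libraries 1 and 2. HSPA1B, an inducible HSP70, was at 26.9 and 12.1 CPM in transgenic and at 14.0 and 23.4 CPM in wild-type libraries 1 and 2. Reads of HSPA1B may be split with near-identical copies, so its level is uncertain. In both genes transgenic library 1 was the highest sample, followed by wild-type library 2. HSPH1, the main HSP110 and a part of the disaggregase with DNAJB1 and HSPA8, was at 356 and 236 CPM in transgenic and at 295 and 443 CPM in wild-type libraries 1 and 2. HSPA4L, a second HSP110, was at 124 and 76.5 CPM in transgenic and at 112 and 135 CPM in wild-type libraries 1 and 2, and again transgenic library 2 was the lowest sample.

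**Figure D3:**
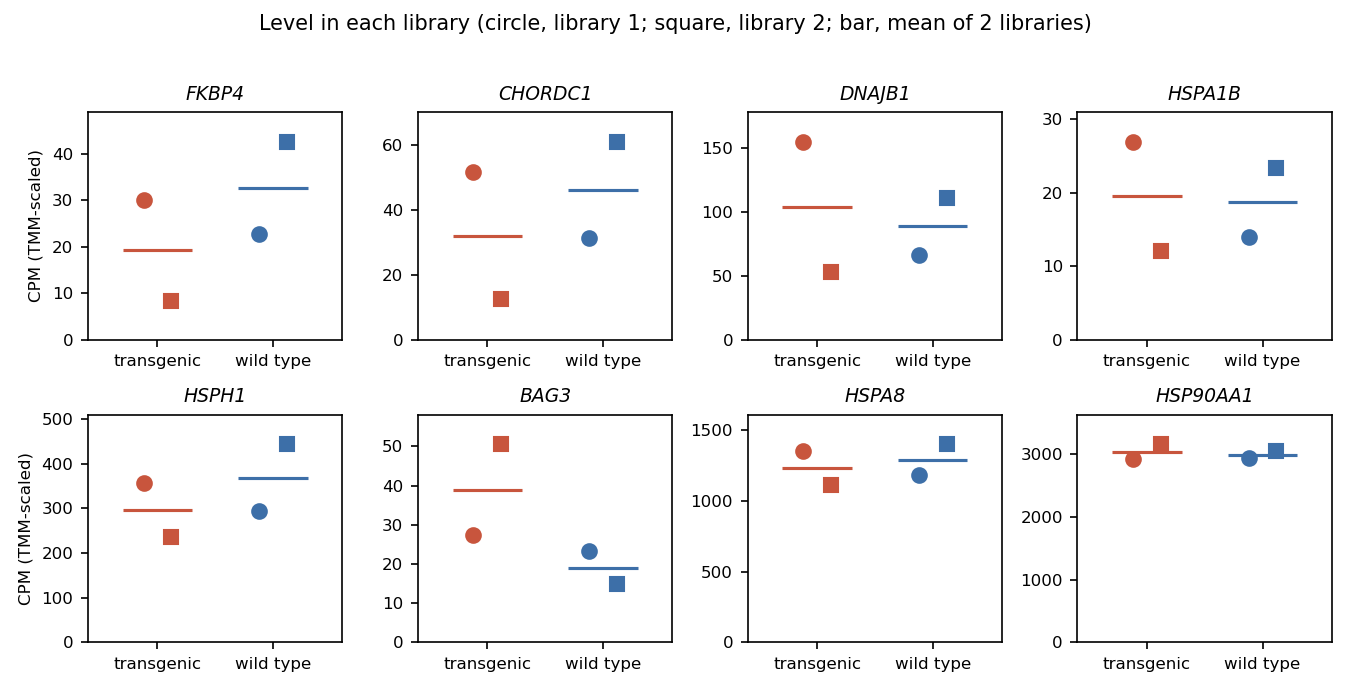
TMM-scaled CPM (y axis) of 8 stress-inducible chaperone genes in each library, by genotype. FKBP4, CHORDC1, DNAJB1, HSPA1B and HSPH1 are higher in transgenic library 1 than 2 and in wild-type library 2 than 1; BAG3 has the opposite order, and HSP90AA1 stays between 2916 and 3147 CPM.

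This order was common in the list. In 9 of the 17 genes (52.9%) the level was higher in transgenic library 1 than 2 and higher in wild-type library 2 than 1. That order was found in 26.4% of all genes and 16.1% of the 56 other chaperone genes. Taken alone, transgenic library 1 was above library 2 in 52.9% of the list, near the 49.5% of all genes. Wild-type library 2 was above library 1 in 88.2% of the list, against 49.9% of all genes. The 9 in the list were HSPA1B, HSPA8, HSPA4L, HSPH1, DNAJA1, DNAJB1, DNAJB4, FKBP4 and CHORDC1. Of the 56 other chaperone genes 9 also had the order, among them HSPA4, HSPB8 and DNAJB5. DNAJB5 was at 39.5 and 23.4 CPM in transgenic and at 22.4 and 35.1 CPM in wild-type libraries 1 and 2. The order was noticed after the values were seen and was not tested. The difference between transgenic libraries 2 and 1 was among the most negative in the table for CHORDC1 (log2 difference -2.01, with 1.17% of genes lower), FKBP4 (-1.79, 1.69%) and DNAJB1 (-1.54, 2.47%), and in the wild type the same genes lay at the other end (log2 differences of 0.94, 0.89 and 0.73 between wild-type libraries 2 and 1, with 98.2%, 98.0% and 96.8% of genes lower).

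Immediate early genes, which neuronal activity induces, moved in the same order. The 10 genes summed to 862 and 332 CPM in transgenic libraries 1 and 2 and to 235 and 723 CPM in wild-type libraries 1 and 2, and 9 of the 10 had the order described. None of the 10 was at 0, and their part in the chaperone differences was not tested. The genotype fold of DNAJB1 turned sign with the library left out (log2 -0.75 without transgenic library 1, 0.80 without transgenic library 2), as did those of HSPA1B (-0.63 and 0.52) and CHORDC1 (-1.90 and 0.15).

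**Figure D4:**
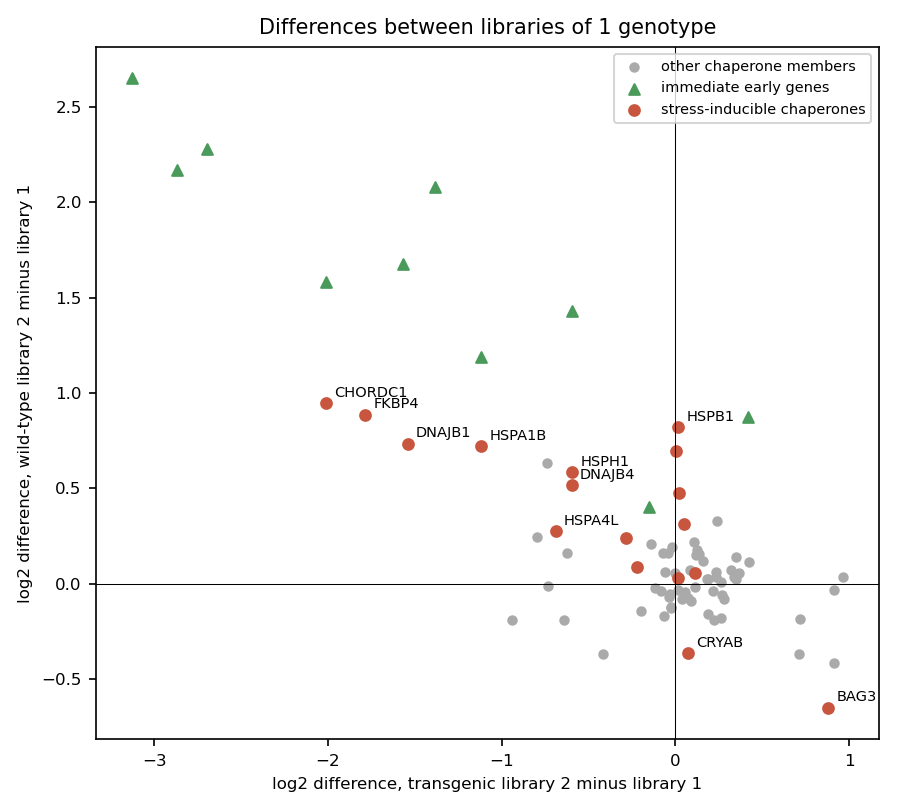
Log2 difference of CPM between libraries of 1 genotype for the chaperone genes and 10 immediate early genes (x axis, transgenic library 2 minus 1; y axis, wild-type library 2 minus 1; log2 of CPM + 0.5). CHORDC1 at -2.01 and 0.94 and FKBP4 at -1.79 and 0.89 lie towards the immediate early genes at upper left, BAG3 at 0.88 and -0.65 lies at lower right, and most other chaperone genes lie near 0.

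STIP1, HSPD1 and DNAJA1 of the same list varied less. STIP1, which joins HSP70 to HSP90, was at 170.3 and 176 CPM in transgenic and at 163 and 203 CPM in wild-type cortex. HSPD1, the mitochondrial HSP60, was at 191 and 192 CPM in transgenic and at 199 and 203 CPM in wild-type cortex. Its libraries did not overlap, but the log2 fold change was -0.07 ± 0.11 (SE, n = 2 per genotype; adjusted p = 0.88 in edgeR). DNAJA1, the main DNAJA partner of HSPA8, was at 392 and 337 CPM in transgenic and at 349 and 371 CPM in wild-type cortex, and the 4 DNAJA genes had fitted log2 fold changes between -0.05 and 0.02. HSPA6 was at 7.57 and 7.59 CPM in transgenic and at 3.87 and 6.58 CPM in wild-type cortex, and HSPA1L, a form known mainly from testis, had 14 and 19 counts in transgenic and 7 and 13 in wild-type libraries.

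Among the 9 DNAJB genes tested, 7 had a positive sign, against 49.6% of all genes, and the median log2 fold change was 0.13, or -0.06 without wild-type library 1. DNAJB2, a neuronal J-domain protein that sorts clients to the proteasome, was at 193 and 182 CPM in transgenic and at 219 and 214 CPM in wild-type cortex. The gap was wider than the spread within either genotype (log2 fold change -0.21 ± 0.12 SE, n = 2 per genotype), but it did not pass the test (adjusted p = 0.79 in edgeR). DNAJB4 was at 68.5 and 45.1 CPM in transgenic and at 53.4 and 76.6 CPM in wild-type libraries 1 and 2, with the same order within each genotype as DNAJB1. DNAJB6, which suppresses polyglutamine and amyloid aggregation, was at 144 and 161 CPM in transgenic and at 139 and 151 CPM in wild-type cortex and is named here after its values were seen. DNAJB3, DNAJB7 and DNAJB8 had no count in any library, which allows up to 0.166 to 0.232 CPM per library.

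The DNAJC genes are the most varied family, with members tied to one organelle or task each. Of 27, 23 were tested, 12 were higher and 11 lower in sign, and the median log2 fold change was 0.02. The transgenic pair lay wholly above the wild-type pair for 6 (26.1%, against 19.5% of all genes) and wholly below it for 5 (21.7%, against 19.4%), shares near those of all genes. DNAJC6, the auxilin that recruits HSPA8 to clathrin coats in neurons, was at 492 and 626 CPM in transgenic and at 458 and 466 CPM in wild-type cortex (log2 fold change 0.28 ± 0.17 SE, n = 2 per genotype; adjusted p = 0.79 in edgeR). Transgenic library 2 was the high sample, and the log2 fold change was 0.09 without it and 0.44 without transgenic library 1. DNAJC5, the synaptic vesicle protein CSPα, was at 266 and 319 CPM in transgenic and at 274 and 276 CPM in wild-type cortex, where the genotypes overlapped, and is named here after its values were seen.

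DNAJC9, a chaperone of histones H3 and H4, separated by genotype with little spread. It was at 18.3 and 19.0 CPM in transgenic and at 12.5 and 12.1 CPM in wild-type cortex. The libraries of each genotype were close together, and the fitted fold was 1.51 (log2 0.60 ± 0.19 SE, n = 2 per genotype; adjusted p = 0.79 in edgeR). Leaving out each library gave log2 values from 0.56 to 0.63. DNAJC27, which has a Rab-like GTPase domain, was at 91.6 and 97.5 CPM in transgenic and at 81.9 and 76.9 CPM in wild-type cortex. On the lower side, DNAJC4 was at 16.4 and 15.6 CPM in transgenic and at 21.8 and 19.4 CPM in wild-type cortex, and DNAJC11, a mitochondrial protein of the cristae junction complex, at 64.9 and 63.7 CPM against 73.9 and 67.7 CPM. None of these passed (adjusted p between 0.79 and 0.82 in edgeR). DNAJC5B, DNAJC5G, DNAJC15 and DNAJC22, and HSPB7 of the small heat shock family, had at most 15 counts in a library and were not tested.

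TRiC, the ring of 8 subunits that folds actin and tubulin, varied little between libraries. Its 8 core subunits (TCP1, CCT2, CCT3, CCT4, CCT5, CCT6A, CCT7 and CCT8) summed to 1082 and 1205 CPM in transgenic and to 1045 and 1116 CPM in wild-type libraries, and their log2 fold changes lay between -0.13 and 0.16. CCT6A was at 194 and 219.9 CPM in transgenic and at 192 and 195 CPM in wild-type cortex, and the genotypes overlapped (log2 fold change 0.10 ± 0.13 SE, n = 2 per genotype; adjusted p = 0.86 in edgeR). CCT6B is a form known from testis and is named here after its values were seen. It had 7 and 9 counts in transgenic and 15 and 14 in wild-type libraries. At such counts its level is uncertain, and the part of reads shared with CCT6A was not tested.

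The members were also grouped by known location after their values were seen. The 6 tested mitochondrial members (HSPA9, HSPD1, DNAJA3, DNAJC11, DNAJC19 and DNAJC30) had a median log2 fold change of -0.06, with 2 higher and 4 lower in sign, against 49.6% and 50.4% of all genes. They summed to 638 and 723 CPM in transgenic and to 666 and 644 CPM in wild-type libraries. The 6 members named above for the endoplasmic reticulum had a median of 0.13, with 5 higher in sign, against 49.6% of all genes. These summed to 426 and 489 CPM in transgenic and to 389 and 406 CPM in wild-type libraries. Both location sets were picked by hand and need not be complete.

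Genes that work with these chaperones but lie outside the rule gave 0 calls among 48 tested (49 listed), with 22 higher and 26 lower in sign, against 49.6% and 50.4% of all genes, and a median log2 fold change of -0.03. The transgenic pair lay wholly above the wild-type pair for 7 (14.6%, against 19.5% of all genes) and wholly below it for 12 (25%, against 19.4%). HSF1, the factor that induces the heat shock genes, was at 26.8 and 37.6 CPM in transgenic and at 38.6 and 39.9 CPM in wild-type cortex, and HSF2 at 27.6 and 35.9 CPM against 25.7 and 25.2 CPM. For HSF1 transgenic library 1, not library 2, was the low sample, unlike FKBP4 and CHORDC1. FKBP5, the glucocorticoid-induced relative of FKBP4, was at 36.1 and 55.3 CPM in transgenic libraries 1 and 2 and at 62.4 and 31.7 CPM in wild-type libraries 1 and 2, the opposite order to FKBP4. The 10 chaperones of the endoplasmic reticulum on that list, with HSPA5 at 256 and 259.8 CPM in transgenic and at 205 and 258 CPM in wild-type cortex, had a median log2 fold change of 0.11. The medians were -0.09 for 4 heat shock factor genes, -0.03 for 21 cochaperones, -0.07 for 6 prefoldin genes, which pass nascent chains to TRiC, and 0.01 for 7 mitochondrial chaperone and protease genes.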

How the data were processed

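The authors deposited a table of raw counts, 1 column per library and 1 row per symbol, as the values show. Per the submitters' processing notes the tools were STAR (2.5.3a), featureCounts (1.5.2) and kallisto (0.46.2), in roles not stated. Build, annotation and strandedness are not given in the sources, so no coordinates are printed, and a gene cannot be separated from an antisense or overlapping neighbour. The libraries of each genotype differed by more than counting error (chi-square per degree of freedom 37.6 for transgenic and 10.3 for wild type). Each was taken as 1 sample. The chi-square cannot tell whether they came from separate animals.

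The counts were filtered with filterByExpr, scaled by TMM and fitted in edgeR 4.0.16 (R 4.3.3) by its quasi-likelihood F-test, with genotype as the only term and 2 residual degrees of freedom. Benjamini-Hochberg adjustment ran over all 16385 genes kept, at a threshold of 0.05. The SE is the log2 fold change divided by the root of F. An exact permutation test over these libraries has a smallest two-sided p of 0.33 and was not used. Differences between single libraries use log2 of CPM plus 0.5. The steps were tested on simulated counts with the same dispersion (spread beyond counting error) for every gene. That setting is simpler than these libraries, so it does not show how many true changes would be missed here. Alternatives were DESeq2 1.42.0, other scalings and filters, a replicate block, and fits without each library.

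The members, families, stress-inducible list and other lists were chosen with earlier results of these data known. Named genes are the tested members of the stress-inducible list, the top member of each family by mean CPM, and, among members with 20 or more counts on average whose genotypes do not overlap, the 6 per direction with the smallest p. All other genes given with values were chosen after their values were seen. CPM is not divided by gene length, so apart from that choice of names, in which longer genes are favoured, levels are not compared between genes.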

Additional observations from a re-analysis of the deposited data

How the results depend on the processing

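With 2 libraries per genotype the data limit every value here to the spread between 4 libraries. No chaperone gene was called with DESeq2, RLE size factors, library totals without scaling, no low-count filter, a minimum mean count of 50 or a replicate block; over all genes DESeq2 called 48 and the fit with no low-count filter 5. Same-numbered libraries did not deviate together (r = -0.13 across genes, which are not independent). The replicate block left the calls among chaperone genes at 0 and turned the log2 fold change of HSPA1B to -0.005. A block with the numbers crossed, chosen after the data were seen, also gave 0 calls.

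With library totals without scaling, the log2 fold change was -0.024 for DNAJA1 and -0.025 for HSP90AA1, and the median was -0.024 over all chaperone genes, -0.117 for HSPD1, -0.030 for DNAJC, 0.271 for HSP70 and -0.226 for the small heat shock proteins, while the median of all genes was -0.048. With no low-count filter the median was 0.100 for DNAJC and -0.238 for the small heat shock proteins, and with a minimum mean count of 50 it was 0.201 for HSP70, since other genes then entered or left.

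Leaving out each library in turn, the calls ran from 0 to 8 among chaperone genes and from 0 to 1710 over all genes, both highest without transgenic library 1. The count of chaperone genes with transgenic libraries above wild type ran from 18 to 38 and below it from 16 to 28. Each fit tested 74 or 75 chaperone genes. With 3 libraries an overlap is less frequent by construction. The matching share of all genes was not computed for these fits, so these counts cannot be set against a background. The median log2 fold change ran from -0.008 to 0.086 over all chaperone genes and from -0.979 to 0.056 for the cochaperones. It ran from -0.071 to 0.046 for DNAJA, -0.063 to 0.218 for DNAJB and -0.021 to 0.075 for DNAJC. For HSP110 it ran from -0.649 to 0.006 and for HSPD1 from -0.090 to -0.053. For HSP70 it ran from 0.164 to 0.414 and for HSP90 from 0.014 to 0.188. For the small heat shock proteins it ran from -0.407 to -0.143. For the TRiC family by symbol, which includes CCT6B and CCT8L2, it ran from -0.025 to 0.174. Single genes were followed through these fits only if named by the rule above, so other members may also have turned sign. Of those followed, the ones that turned ran from -1.898 to 0.155 (CHORDC1), -0.346 to 0.012 (CRYAB) and -0.096 to 0.122 (DNAJA1). Others were -0.748 to 0.800 (DNAJB1), -0.529 to 0.091 (DNAJB4), -0.037 to 0.076 (HSP90AA1) and -0.627 to 0.519 (HSPA1B). The rest were -0.212 to 0.067 (HSPA8), -0.451 to 0.393 (HSPB1), -0.649 to 0.006 (HSPH1) and -0.237 to 0.086 (STIP1). The cause of these shifts was not tested.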
